A study of Mus musculus with 12 samples.

Results

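Aminoacyl tRNA synthetases join each amino acid to its tRNA, the step that supplies charged tRNA to the ribosome. The genes described here are the rows of the deposited expression table whose symbol is 1 of 36 listed synthetase genes, and all 36 were found among the 12516 genes of the table. The cytosolic enzymes account for 20 of them and the mitochondrial enzymes, whose symbols end in 2, for 16. All 36 also passed the filter on low values described with the processing.

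Each synthetase recognises 1 amino acid and its tRNAs, and most cells need every one of them for protein synthesis. The enzymes fall into class I and class II by the fold of their active site. Several cytosolic enzymes are held together in the multisynthetase complex. Mitochondria translate their own messages with a separate set of synthetases that is encoded in the nucleus, and in humans changes in LARS2, HARS2 and AARS2 are known from disorders with ovarian failure. When an amino acid runs short, uncharged tRNA activates the kinase Gcn2, translation of the transcription factor Atf4 goes up, and Atf4 is known in mammalian cells to raise transcription of amino acid transporters, of amino acid synthesis genes and of many cytosolic synthetases.

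The expression data came from RNA-seq of Oct4+ germ cells sorted from female mouse embryos of embryonic day 13.5, with 1 embryo per library. All were Gulo-/- on a C57BL/6 background, so neither they nor their mothers could make vitamin C. In 6 embryos vitamin C had been withdrawn from the diet of the colony in the first weeks of pregnancy, and in the 6 others it was supplied at a physiological level. At this age female germ cells leave mitosis and enter meiosis, and the comparison asks how vitamin C supply bears on their transcripts.

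The submitters call the embryos biological replicates, but embryos can share a number in their title within a diet, and the labels do not say whether those are littermates. P-values therefore measure the spread between these embryos. In bulk samples such as these, fewer cells of a type and less RNA per cell cannot be told apart. Depth per library is unknown because the values are normalized log2 expression. On the first principal component the scores of withdrawn embryos were 1.27 to 23.2, and supplied replicate 4, at 1.54, fell among them, whereas those of the remaining supplied replicates were -18.3 to -6.56. The label of germ cells matched its markers, and the sex in the label was not checked. All 11 germ cell markers were tested, and 10 of them lay above the median gene. Their mean level was 10.71 to 10.85 in withdrawn and 10.67 to 10.94 in supplied embryos. Of these 11 markers, 7 had a positive and 4 a negative log2 fold change, withdrawn minus supplied. At a Benjamini-Hochberg adjusted p below 0.05, limma called 6 higher and 3 lower, against 6.22% and 7.75% of all 12432 genes tested. The 6 called higher were Dppa5a (0.49), Pou5f1 (0.45), Tfap2c (0.39), and Dppa3, Sall4 and Dnd1 (0.23 each). Pou5f1 encodes Oct4, the marker of the sort, so the sort marker itself differed between the diets (limma adjusted p = 0.00505). The 3 called lower were Stra8 (-1.77), Dazl (-0.43) and Ddx4 (-0.34). Markers of other cells were low. None of the 12 supporting cell, 6 mesenchymal, 5 endothelial, 5 macrophage and 4 mesonephric markers tested lay above the median gene. The 8 erythroid markers matched no symbol of the table, so erythroid cells were not assessed.

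More cytosolic synthetase genes were higher in withdrawn embryos than lower. Across all genes, limma called 6.22% of 12432 higher at that threshold. Of the 20 cytosolic synthetases, 4 were called higher (20%) and 0 lower. Kars alone was called with embryos that share title number and diet tied at their estimated correlation of 0.267, and 0 were called with such embryos averaged. The 4 genes called without such tying or averaging were Kars, Aars, Sars and Farsb, each 1.17 to 1.19-fold higher. The log2 fold change, withdrawn minus supplied, was positive for 18 of 20 members, with a median of 0.099 and a range of -0.04 to 0.25, against 46.6% positive and a median of -0.009 over all genes tested. With quantile normalization 15 of 20 were positive and the median was 0.059. All 20 members lay above the median gene in level, whereas the values over all genes include genes of every level. A comparison with genes of like level was not made.

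**Figure D1:**
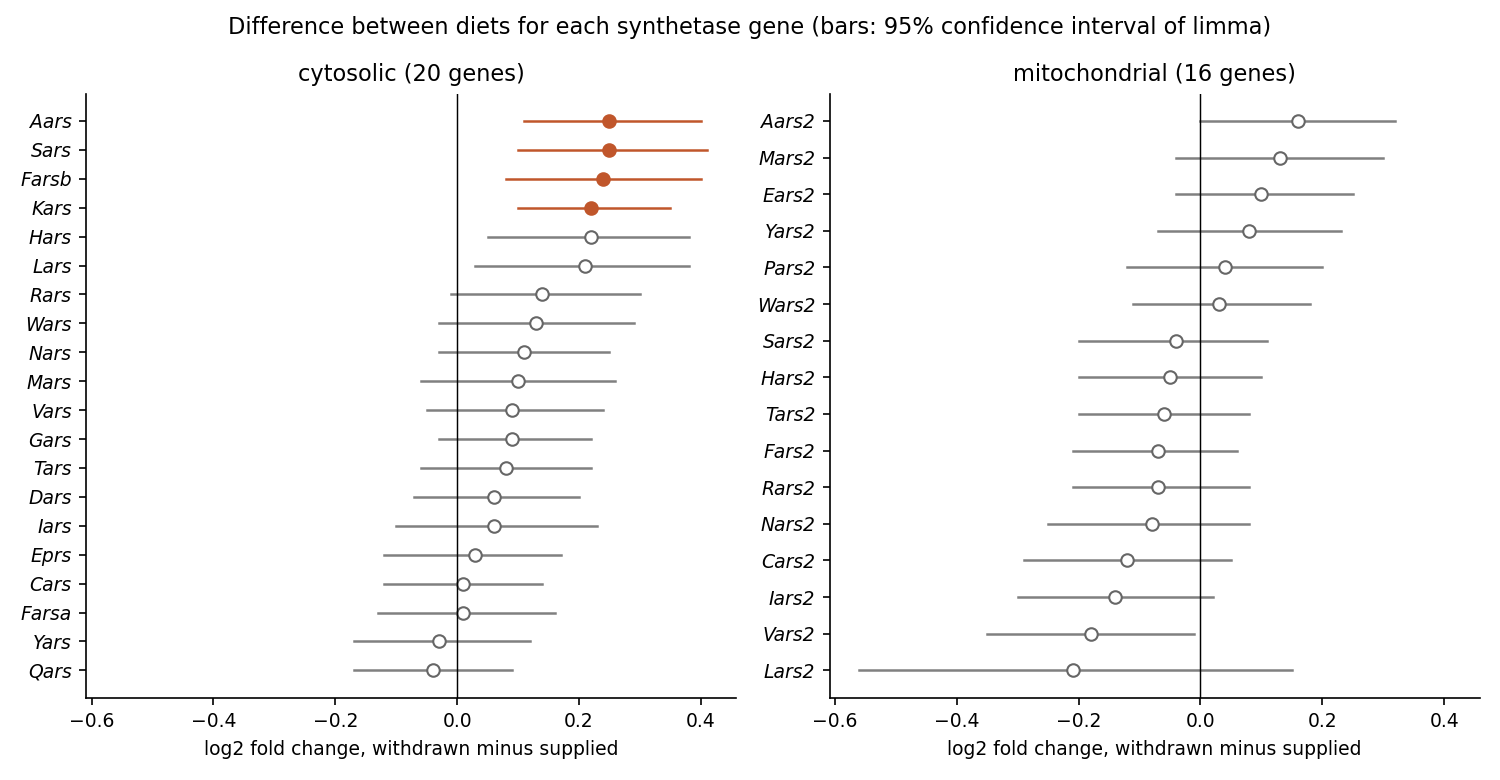
Log2 fold change of each of the 20 cytosolic (left) and 16 mitochondrial (right) synthetase genes, withdrawn minus supplied, with the 95% confidence interval of limma as bars. Filled points are the 4 called genes. Most cytosolic points lie right of 0 (18 of 20), and 10 of 16 mitochondrial points lie left of it.

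Kars encodes the lysine enzyme, in 1 form for the cytosol and another for mitochondria, and belongs to the multisynthetase complex. Its normalized log2 expression was 11.45, 11.57 and 11.67 (lowest, median and highest) in withdrawn embryos, against 11.25, 11.35 and 11.47 in supplied embryos. Of the 6 withdrawn embryos, 5 lay above every supplied one, and withdrawn replicate 2 fell just under supplied replicate 4. The limma log2 fold change was 0.22 (SE 0.06, adjusted p = 0.0176), or 1.17-fold.

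Aars encodes the alanine enzyme, which also clears tRNA wrongly charged with serine or glycine. It had a lowest, median and highest value of 10.73, 10.83 and 11.16 in withdrawn embryos, against 10.49, 10.65 and 10.68 in supplied embryos. The groups did not overlap, and withdrawn replicate 5 stood above the rest. Over all genes, 2.15% had every withdrawn embryo above every supplied one, and Aars was the 1 synthetase among them. Its log2 fold change was 0.25 (SE 0.07, limma adjusted p = 0.0224), and the exact permutation test per gene gave an adjusted p of 0.0482. Over all genes the exact test called 267 higher and 291 lower, the same numbers as genes without overlap. It thus restates the lack of overlap and is no separate evidence.

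Sars encodes the serine enzyme, which charges the serine tRNAs and also the tRNA from which selenocysteine is made. Its values were 10.54, 10.72 and 10.90 in withdrawn embryos, against 10.33, 10.42 and 10.68 in supplied embryos (lowest, median and highest). Withdrawn replicates 2 and 3 lay below supplied replicate 4, and the other 4 withdrawn embryos lay above all supplied ones. The log2 fold change was 0.25 (SE 0.08, limma adjusted p = 0.0278).

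Farsb encodes the beta subunit of the phenylalanine enzyme, which carries the editing site. It had values of 10.23, 10.36 and 10.59 in withdrawn embryos, against 9.91, 10.15 and 10.33 in supplied embryos (lowest, median and highest). The groups overlapped, with 4 of 6 withdrawn embryos above all supplied ones. Its log2 fold change was 0.24 (SE 0.08, limma adjusted p = 0.0429). Farsa, the alpha subunit of the same enzyme, averaged 10.23 ± 0.15 in withdrawn and 10.22 ± 0.06 in supplied embryos (SD, n = 6 each), a log2 fold change of 0.01 (SE 0.07, limma adjusted p = 0.928). The difference between the subunits was not tested.

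**Figure D2:**
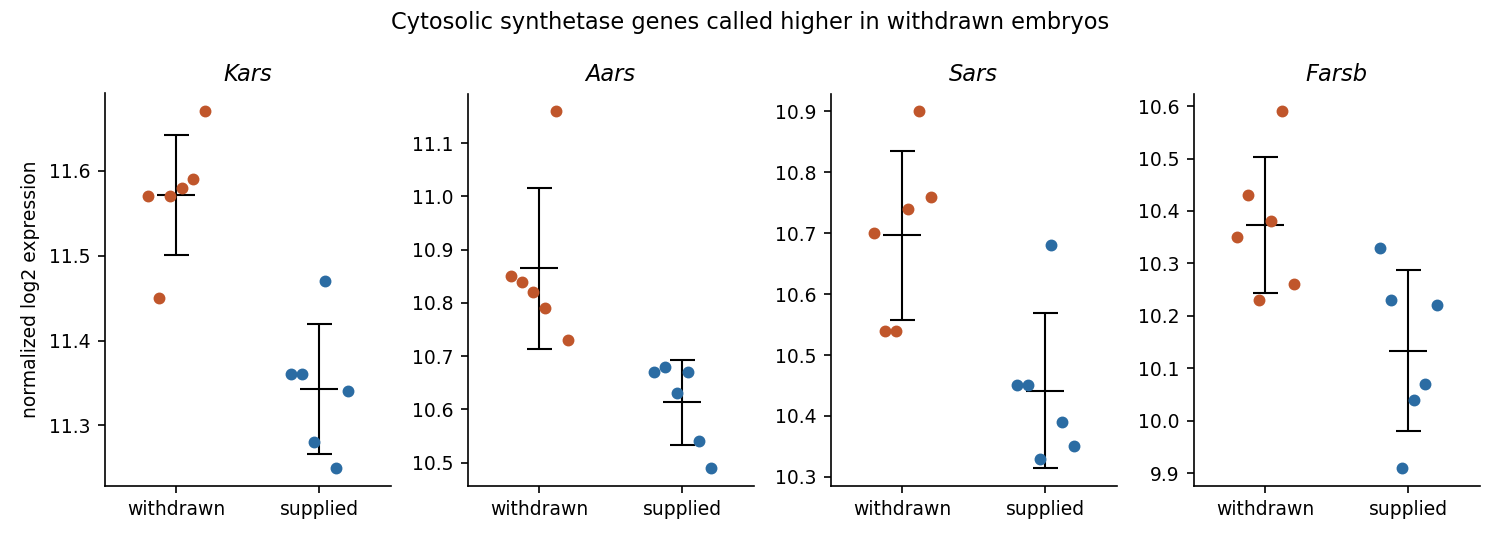
Normalized log2 expression of the 4 called cytosolic genes in each embryo, withdrawn left and supplied right, with the mean and SD of 6 embryos as bars; each panel has its own axis. The groups of Aars do not overlap, and those of Kars overlap by withdrawn replicate 2 at 11.45 and supplied replicate 4 at 11.47.

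These 4 calls depended on single embryos to differing degrees. With 1 embryo left out, Kars was called in 11 of 12 fits, Aars in 10, Sars in 6 and Farsb in 4. The sign of the 4 did not change in any of 30 alternative fits. Some of these, such as the exact test and the thresholds of 0.01 and 0.1, keep the main estimate and could not change the sign. A gene called at 0.05 is also always called at 0.1. Kars was called in 22 of 30, with adjusted p from 0.00748 to 0.233, and Aars in 21, with adjusted p from 0.00787 to 0.228. Sars was called in 15 (adjusted p 0.00641 to 0.378) and Farsb in 8 (0.0254 to 0.379). Without supplied replicate 5 none of the 4 was called, with limma adjusted p = 0.0505 for Kars, 0.0573 for Aars, 0.0642 for Sars and 0.0933 for Farsb. Without supplied replicate 6, Kars alone was called. Sars was also not called without withdrawn replicates 4, 5 or 6 or supplied replicate 3. Among the fits that left out 1 embryo, Farsb was called only in those without withdrawn replicates 3 or 6 or supplied replicates 1 or 2. The lowest and highest log2 fold changes over the alternatives were 0.17 and 0.26 for Kars, 0.16 and 0.31 for Aars, 0.15 and 0.30 for Sars and 0.17 and 0.31 for Farsb.

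Leaving out all 4 embryos of title number 4, or the 4 of title number 1, left 0 cytosolic synthetases called, and 49 and 729 genes called in all. Markers of somatic gonad cells moved with the diet. The mean of 18 supporting cell and mesenchymal markers was 5.12 ± 0.05 in withdrawn and 5.25 ± 0.11 in supplied embryos (SD, n = 6 each), and all 18 were negative. With that mean as a covariate, 0 of the 20 cytosolic genes and 1 gene in all were called, and the cytosolic median was 0.084. The ribosomal precursor Rn45s also moved with the diet, and with its level as a covariate 0 cytosolic genes and 14 genes in all were called, with a cytosolic median of 0.097. The part of either in the cytosolic result was not tested.

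The promoter sequences of the 4 called genes are shown because these genes moved in 1 direction. They are from RefSeq, build GRCm38.p6, and end at the base before the annotated start, so their coordinates are not those of the mm9 build used for the expression table. Capitals mark 2 motifs. The first is TGATGNAA, the core of the C/EBP-ATF response element to which Atf4 binds, or TTNCATCA on the other strand. The second is the E-box CACGTG, chosen after the sequences had been read.
Aars, chr8:111033592-111033841, plus strand: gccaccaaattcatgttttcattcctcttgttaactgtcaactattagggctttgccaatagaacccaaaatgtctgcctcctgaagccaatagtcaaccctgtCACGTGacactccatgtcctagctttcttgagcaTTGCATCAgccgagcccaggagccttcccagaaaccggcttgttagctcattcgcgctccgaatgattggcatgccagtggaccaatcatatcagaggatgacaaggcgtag
Farsb, chr1:78488898-78489147, minus strand: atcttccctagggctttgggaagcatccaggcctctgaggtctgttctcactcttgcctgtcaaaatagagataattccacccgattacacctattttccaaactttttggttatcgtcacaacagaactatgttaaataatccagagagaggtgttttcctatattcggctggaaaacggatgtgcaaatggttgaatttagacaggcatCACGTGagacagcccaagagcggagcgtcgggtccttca
Kars, chr8:112011355-112011397, minus strand: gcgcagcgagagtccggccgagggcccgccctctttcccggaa
Sars, chr3:108445260-108445509, minus strand: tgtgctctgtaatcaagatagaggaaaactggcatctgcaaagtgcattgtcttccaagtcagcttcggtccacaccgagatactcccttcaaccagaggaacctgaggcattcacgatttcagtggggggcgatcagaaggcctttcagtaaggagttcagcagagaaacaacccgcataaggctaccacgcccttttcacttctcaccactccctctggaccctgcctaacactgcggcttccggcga
The Kars sequence stops after 43 bases, where the annotated start of its divergent neighbour Terf2ip lies. Terf2ip averaged 8.07 ± 0.17 in withdrawn and 8.00 ± 0.11 in supplied embryos (SD, n = 6 each), a log2 fold change of 0.07 (limma adjusted p = 0.607).

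The motifs were searched on both strands in the 300 bases from 250 before to 50 after each start. The table held 26 of the 36 members, and Cars, Hars, Lars, Mars, Nars, Rars, Vars, Wars, Hars2 and Pars2 were not matched. TGATGNAA was found in 1304 of 32851 windows (3.97%), in 5 of 12 cytosolic members and in 0 of 14 mitochondrial members. In Aars it occurred at -112 to -105, shown in capitals above, and again at 10 to 17 after the start. The other matches were in Gars at -30 to -23, Iars at 8 to 15, Tars at -15 to -8 and Yars at 4 to 11. Only Aars of these 5 was called, and the log2 fold changes of the others were 0.09 for Gars, 0.06 for Iars, 0.08 for Tars and -0.03 for Yars.

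CACGTG, chosen after the sequences above had been read, was found in 2349 windows (7.15%). It occurred in 4 of 12 cytosolic members, namely Aars at -146 to -141, Farsb at -39 to -34, Iars at -69 to -64 and Tars at 20 to 25, and in 1 of 14 mitochondrial members, Ears2, at 22 to 27. Its matches in Aars and Farsb lie in sequences read before the choice, so the cytosolic count is no separate evidence. No match of 1 motif overlapped a match of the other. Neither motif was found in the windows of Kars and Sars. A match describes the sequence and does not show that a factor binds there.

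The other 16 cytosolic genes did not pass. Hars, for histidine, came next, at 9.46, 9.87 and 9.93 in withdrawn embryos, against 9.53, 9.56 and 9.81 in supplied embryos (lowest, median and highest). The highest supplied embryo, replicate 4, reached into the withdrawn range, and withdrawn replicate 3 lay below all supplied embryos. Its log2 fold change was 0.22 (SE 0.08, limma adjusted p = 0.0703). Without supplied replicate 4 or without withdrawn replicate 3 it was called, and over 30 alternatives its adjusted p ranged from 0.0102 to 0.438.

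Lars, for leucine, is also known as a leucine sensor upstream of mTORC1. It had 11.22, 11.40 and 11.57 in withdrawn embryos, against 10.95, 11.25 and 11.49 in supplied embryos (lowest, median and highest), and the groups overlapped widely. Its log2 fold change was 0.21 (SE 0.08, limma adjusted p = 0.103), and it was called without supplied replicate 1 (adjusted p over the alternatives 0.0390 to 0.495).

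The remaining cytosolic values were smaller. Rars (arginine) was at 0.14, Wars (tryptophan) at 0.13, Nars (asparagine) at 0.11 and Mars (methionine) at 0.10. Gars (glycine), whose gene also serves mitochondria, and Vars (valine) were each at 0.09, Tars (threonine) was at 0.08, and Dars (aspartate) and Iars (isoleucine) were each at 0.06. Eprs, a single protein that charges glutamate and proline, was at 0.03 and Cars (cysteine) at 0.01. Yars (tyrosine) and Qars (glutamine) were at -0.03 and -0.04, and for both genes 5 of 6 withdrawn embryos lay below the supplied mean. The limma adjusted p of these genes lay between 0.194 for Rars and 0.927 for Cars.

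All 4 called genes belong to class II, 40% of its 10 cytosolic genes, against 6.22% of all genes called higher. In sets as small as these, 0 calls or 1 call lie near that share. Of the 10 cytosolic class II genes, all had a positive log2 fold change, with a median of 0.162, and of the 9 class I genes 7 did, with a median of 0.095 and 0 calls. An unadjusted p below 0.05 was reached by 5 of the 10 class II genes and by 1 of the 9 class I genes, Lars, against 3754 of all 12432 genes. Exact permutation, which called only genes without overlap between the diets, called Aars in class II and 0 genes in class I. Of the 8 genes of the multisynthetase complex, 1 was called (Kars, 12.5%), 7 were positive and the median was 0.083. Of the 12 cytosolic genes outside the complex, 3 were called (25%), 11 were positive and the median was 0.102. Differences between these sets were not tested.

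The mean of the 20 cytosolic genes differed among embryos of 1 diet. Relative to the supplied mean it was 0.051 to 0.209 log2 units in withdrawn embryos and -0.065 to 0.080 in supplied embryos. Withdrawn replicate 5 had the highest mean and was the highest of its group in 10 of 20 genes. Withdrawn replicate 3, at 0.051, lay below supplied replicate 1, at 0.080, and just below supplied replicate 4, at 0.053. Among supplied embryos, replicates 1, 2 and 4 had positive and replicates 3, 5 and 6 negative means.

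**Figure D3:**
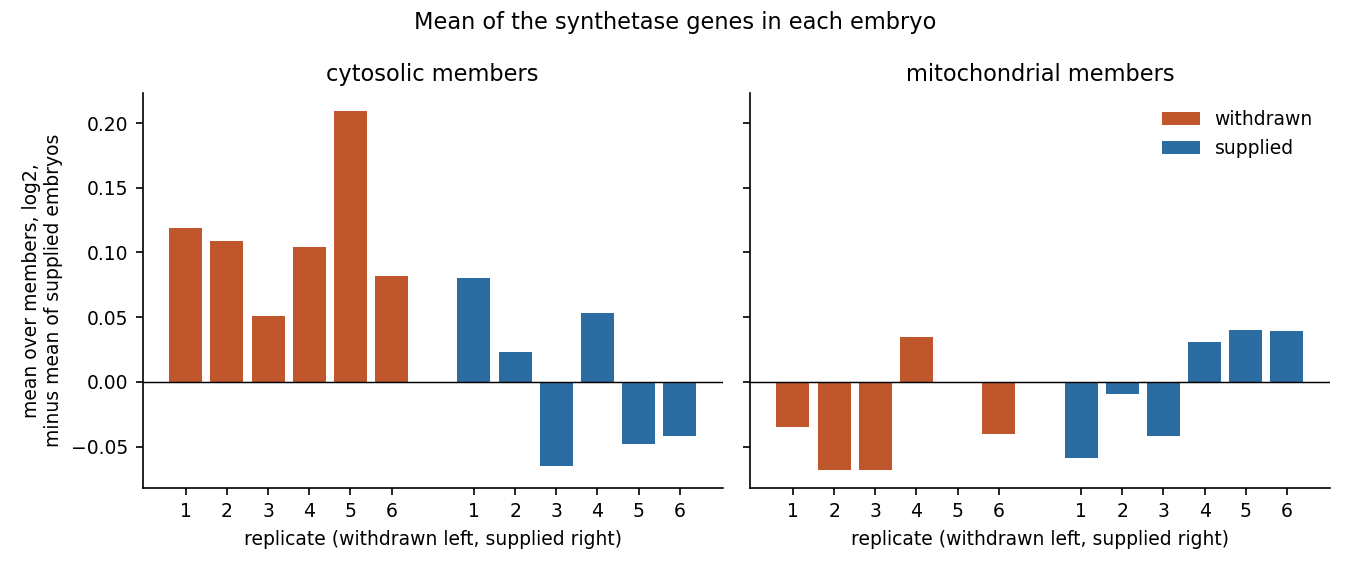
Mean of the 20 cytosolic (left) and 16 mitochondrial (right) synthetase genes in each embryo, in log2 units relative to the mean of the supplied embryos, withdrawn in orange and supplied in blue. All 6 withdrawn embryos have positive cytosolic means, the highest in replicate 5 at 0.209, and supplied replicate 1 reaches 0.080. The mitochondrial means of both diets lie on either side of 0 and include Lars2, which varied most between embryos.

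None of the 16 mitochondrial synthetases was called. Over all genes, limma called 7.75% lower. Of the 16, 6 had a positive and 10 a negative log2 fold change, the median was -0.053 and the range -0.21 to 0.16. One gene, Vars2, had an unadjusted p below 0.05 (1 of 16, against 3754 of all 12432 genes), and 0 were called by exact permutation per gene. The mean of the 16 relative to the supplied mean was -0.068 to 0.035 in withdrawn and -0.059 to 0.040 in supplied embryos, so the diets overlapped throughout. That mean includes Lars2, described below, whose SD was 0.43 in each diet, against at most 0.21 for the other 35 synthetases. The mean without Lars2 is not given.

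Vars2, for valine, had 9.12, 9.35 and 9.42 in withdrawn embryos, against 9.17, 9.53 and 9.65 in supplied embryos (lowest, median and highest). All 6 withdrawn embryos lay below the supplied mean, but 2 of the supplied embryos lay inside the withdrawn range. Its log2 fold change was -0.18 (SE 0.08, limma adjusted p = 0.146). It was called without supplied replicate 4 (-0.24, adjusted p = 0.0290), and its adjusted p over the alternatives ranged from 0.0286 to 0.540.

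Aars2, for alanine, had 7.71, 8.00 and 8.11 in withdrawn embryos, against 7.61, 7.79 and 7.93 in supplied embryos. Its groups overlapped, with 4 of 6 withdrawn embryos above all supplied ones, and its log2 fold change was 0.16 (SE 0.08, limma adjusted p = 0.177). Iars2, for isoleucine, had 10.73, 11.03 and 11.16 in withdrawn embryos, against 10.94, 11.17 and 11.29 in supplied embryos, a log2 fold change of -0.14 (SE 0.08, limma adjusted p = 0.243). Mars2, for methionine, had 7.01, 7.12 and 7.50 in withdrawn embryos, against 6.91, 7.01 and 7.20 in supplied embryos, a log2 fold change of 0.13 (SE 0.08, limma adjusted p = 0.283). Its highest value was in withdrawn replicate 5, and only 3 of 6 withdrawn embryos exceeded the supplied mean.

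Among the other mitochondrial genes, Ears2 (glutamate) was at 0.10, Yars2 (tyrosine) at 0.08, Pars2 (proline) at 0.04 and Wars2 (tryptophan) at 0.03. On the negative side were Sars2 (serine) at -0.04, Hars2 (histidine) at -0.05, Tars2 (threonine) at -0.06 and Fars2 (phenylalanine) and Rars2 (arginine) at -0.07 each. Nars2 (asparagine) was at -0.08 and Cars2 (cysteine) at -0.12. The limma adjusted p of these genes lay between 0.332 and 0.797.

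Lars2, the mitochondrial leucine enzyme, stood apart in level and in spread. Its mean over the 12 embryos, 15.51, was the fourth highest of the table, which ranks genes without regard to transcript length. It had 14.86, 15.54 and 15.85 in withdrawn embryos, against 14.98, 15.73 and 16.06 in supplied embryos (lowest, median and highest), with an SD of 0.43 in each group. The SD of the other 35 synthetases was at most 0.21. The diets overlapped, and the log2 fold change was -0.21 (SE 0.17, limma adjusted p = 0.439). Without the embryos of title number 1 Lars2 was called lower (-0.56, adjusted p = 0.0452), and the sign turned without those of title number 4 (0.07, adjusted p = 0.881) and with Rn45s as a covariate (0.30, adjusted p = 0.0735).

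Lars2 varied between embryos with Rn45s, the gene of the 45S ribosomal RNA precursor, which had the highest mean of the table (20.52). This was noticed after the values had been seen. Over the 12 embryos Pearson's r was 0.89 (permutation p = 0.00012) and Spearman's rho was 0.84 (permutation p = 0.00112). Within diets r was 0.97 in withdrawn embryos (exact permutation p = 0.00694, rho 0.94) and 0.93 in supplied embryos (exact permutation p = 0.0125, rho 0.89). Without the 2 embryos farthest from the median of Rn45s, r was 0.78 (permutation p = 0.00811). In a limma regression of 12431 genes on Rn45s the slope of Lars2 was 0.94 (SE 0.12), with an adjusted p of 0.00110 over all these genes, and its r ranked 40 among them. Each of the other 35 synthetases had an r between -0.62 (Kars) and 0.59 (Qars).

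Rn45s averaged 20.30 ± 0.40 in withdrawn and 20.74 ± 0.27 in supplied embryos (SD, n = 6 each) and was called lower in withdrawn embryos (-0.44, SE 0.14, limma adjusted p = 0.0371). The labels do not give how much ribosomal RNA entered each library, and its part in the values of Lars2 was not tested.

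**Figure D4:**
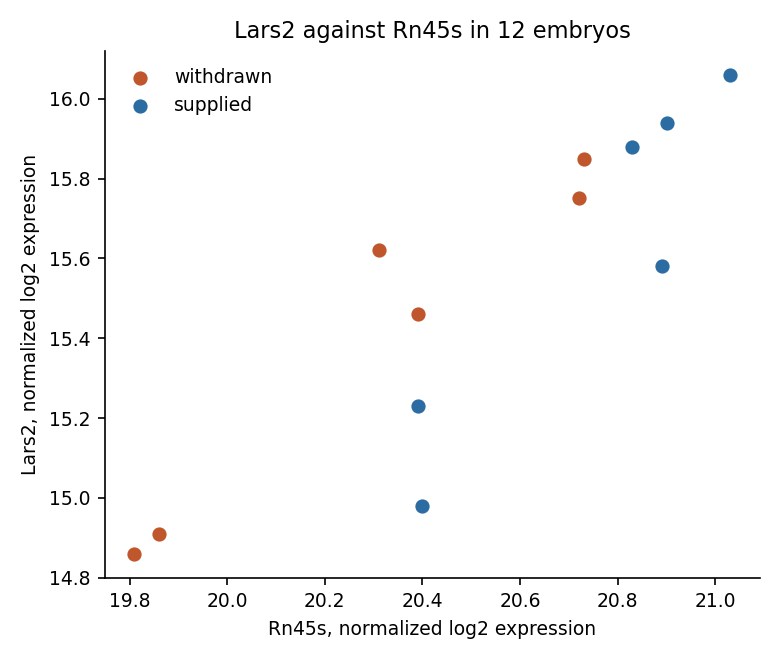
Normalized log2 expression of Lars2 against Rn45s in the 12 embryos, withdrawn in orange and supplied in blue. Lars2 and Rn45s are high or low together over the embryos of both diets (r = 0.89), with withdrawn replicates 3 and 6 lowest in both genes and supplied replicate 6 highest in both.

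To set genes beside each other, the mean log2 level was taken per kb of transcript, with the longest principal transcript model of each gene in GENCODE. On that scale the median was 8.97 over the cytosolic genes, 7.34 over the mitochondrial genes and 6.63 over 12386 genes with a length. The highest cytosolic levels were those of Dars (10.50), Eprs (10.49) and Kars (10.45), which are all parts of the multisynthetase complex and lie closer to each other than the SD between embryos, 0.07 to 0.12. The lowest were those of Aars (8.22), Cars (8.07) and Yars (7.03). The Aars value rests on a transcript model of 5750 bases, the longest among the cytosolic genes. The level of Aars with another model was not computed. With the models used, Kars lay near the top and Aars near the bottom of the cytosolic range, and both were called.

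Among the mitochondrial genes, Lars2 (13.55), Tars2 (9.06) and Iars2 (8.62) had the highest levels per kb. Pars2 (5.30), Wars2 (4.53) and Mars2 (3.61) had the lowest, and the Mars2 value rests on a transcript model of 11294 bases. In 14 of 17 pairs of enzymes for the same amino acid, among which Eprs and Fars2 recur, the cytosolic gene was higher per kb. The exceptions were leucine, where Lars minus Lars2 was -4.23, tyrosine with -1.15 and threonine with -0.41. Lars2 varied with Rn45s (r = 0.89), and the part of ribosomal RNA in its level was not tested. Isoleucine was the closest pair, with Iars above Iars2 by 0.12.

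**Figure D5:**
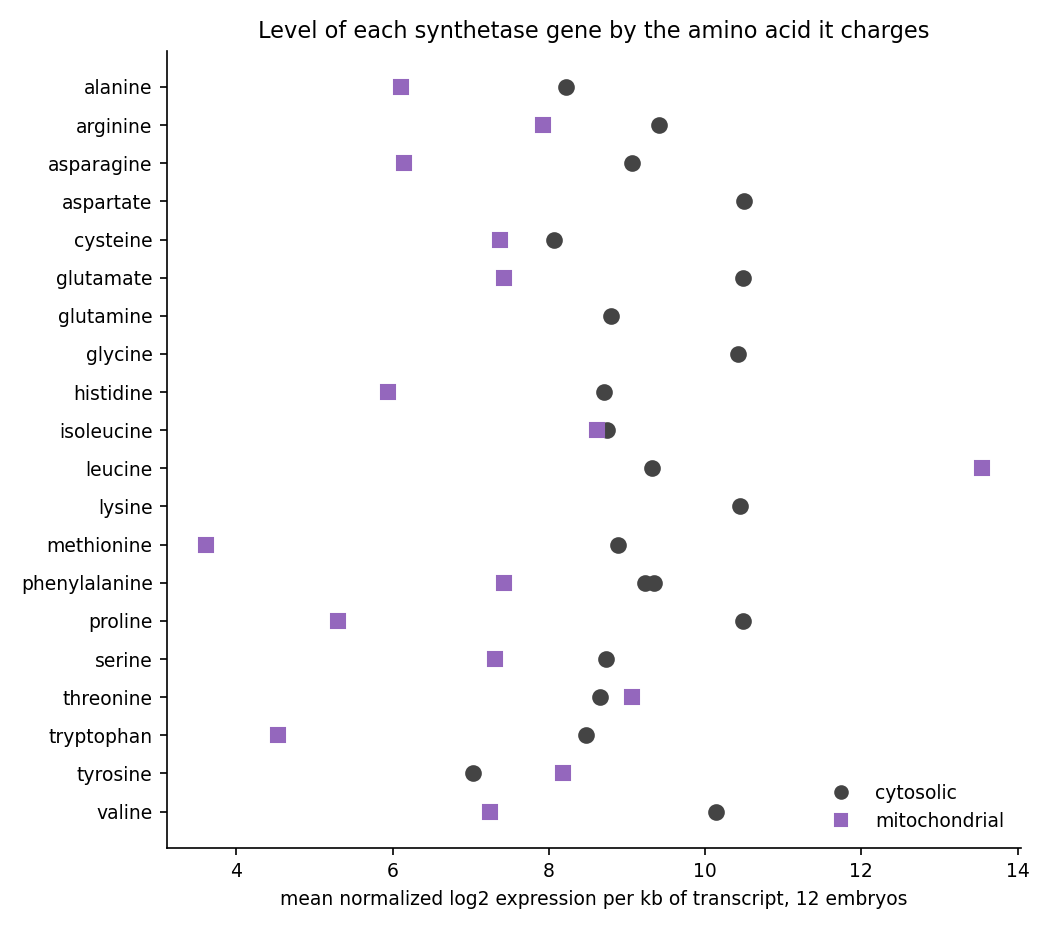
Mean normalized log2 expression per kb of transcript over 12 embryos for each synthetase gene, by the amino acid it charges; circles are cytosolic and squares mitochondrial genes. Phenylalanine has 2 cytosolic genes (Farsa and Farsb), and Eprs is drawn for both glutamate and proline. Lars2 (13.55), which varied with Rn45s, is the highest point, and leucine, threonine and tyrosine are the 3 amino acids with the square to the right of the circle.

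The log2 ratio of the cytosolic to the mitochondrial gene can be read within each embryo. It was larger in withdrawn than in supplied embryos in 13 of 17 pairs, and the median difference was 0.14 log2 units. Eprs and Fars2 recur among the pairs, so these are not all separate. The largest difference, 0.41, was that of Lars over Lars2, the gene that varied with Rn45s. That ratio was -3.99 ± 0.37 in withdrawn and -4.40 ± 0.58 in supplied embryos. For serine, Sars over Sars2 was 2.51 ± 0.07 in withdrawn and 2.21 ± 0.12 in supplied embryos (SD, n = 6 each). For phenylalanine, Farsb over Fars2 was 1.90 ± 0.17 in withdrawn and 1.58 ± 0.16 in supplied embryos. For alanine, where both genes were positive, the ratio was 2.93 ± 0.18 in withdrawn and 2.83 ± 0.10 in supplied embryos. The 4 pairs with a smaller ratio in withdrawn embryos were Eprs with Ears2 (-0.08), Eprs with Pars2 (-0.02), Mars with Mars2 (-0.03) and Yars with Yars2 (-0.11). These ratios are descriptions and were not tested.

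Of 8 genes of synthetase partners and tRNA delivery, 0 were called by limma or by the exact test per gene, and 0 had an unadjusted p below 0.05. The complex scaffold Aimp1, the CCA-adding enzyme Trnt1 and the mitochondrial elongation factor Tufm were each at 0.11, and Elac2, which trims tRNA at its 3' end, was at -0.10. Of further genes of mitochondrial charging, Mtfmt, which formylates the initiator tRNA, was at -0.07 (limma adjusted p = 0.505), and the peptidyl-tRNA hydrolase Ptrh2 was at 0.14 (limma adjusted p = 0.243). Without the embryos of title number 2, Ptrh2 was called (0.24, adjusted p = 0.0378), and over the alternatives its adjusted p ranged from 0.0378 to 0.726. Of 7 genes of selenocysteine charging, 0 were called by either test, and 1 had an unadjusted p below 0.05, as did 3754 of all 12432 genes. Trnau1ap, a factor of the selenocysteine tRNA, was at 0.14, Sephs2, which makes selenophosphate, at 0.16, Sepsecs, the converting enzyme, at -0.11 and Secisbp2, a reader of selenocysteine insertion elements, at -0.06.

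Tarsl2, a close relative of the cytosolic threonine enzyme Tars, was lower in withdrawn embryos. It had 7.92, 8.47 and 8.54 in withdrawn embryos, against 8.60, 8.82 and 9.07 in supplied embryos (lowest, median and highest). The groups did not overlap, as for 2.34% of all genes in this direction, and withdrawn replicate 5 was the lowest embryo. The log2 fold change was -0.43 (SE 0.10, limma adjusted p = 0.00722). It was called in 26 of 30 alternatives, among them all 12 that left out 1 embryo. The call was lost without title number 4 (-0.23, adjusted p = 0.156), with embryos of a title number and diet averaged (-0.37, adjusted p = 0.0520), with the somatic marker covariate (-0.41, adjusted p = 0.139) and with the Rn45s covariate (-0.40, adjusted p = 0.0939). Over all alternatives its adjusted p ranged from 0.00171 to 0.156. Tars itself was at 0.08. The 3 other genes of this list, Prorsd1 and Aarsd1, which remove wrongly attached amino acids from tRNA, and Dtd1, which removes D-amino acids, were at 0.07, -0.07 and 0.01.

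The amino acid response, the pathway around Gcn2 and Atf4, was measured by 18 of 20 listed genes. Of these, 4 were called higher (22.2%, against 6.22% of all genes) and 0 lower, 13 of 18 were positive and the median was 0.025. The 4 were Slc7a5 and Slc3a2, the light and heavy chains of a transporter for large neutral amino acids, the neutral amino acid transporter Slc1a5, and Sesn2, a leucine sensor. In all 4 genes every withdrawn embryo lay above every supplied one, as for 2.15% of all genes. The 4 are named because limma called them, so this is no separate evidence.

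Slc7a5 had 10.33, 10.39 and 10.81 in withdrawn embryos, against 9.89, 10.03 and 10.32 in supplied embryos (lowest, median and highest), a log2 fold change of 0.40 (SE 0.09, limma adjusted p = 0.00665). Slc3a2 had 10.05, 10.11 and 10.33 in withdrawn embryos, against 9.64, 9.79 and 9.95 in supplied embryos, a log2 fold change of 0.35 (SE 0.07, limma adjusted p = 0.00386). Withdrawn replicate 5 was the highest and supplied replicate 5 the lowest embryo for both chains. Sesn2 had 8.58, 8.65 and 8.86 in withdrawn embryos, against 8.25, 8.39 and 8.54 in supplied embryos, a log2 fold change of 0.28 (SE 0.07, limma adjusted p = 0.0137). Slc1a5 had 5.98, 6.02 and 6.12 in withdrawn embryos, against 5.79, 5.86 and 5.91 in supplied embryos, a log2 fold change of 0.18 (SE 0.05, limma adjusted p = 0.0162). All 4 stayed called when any 1 embryo was left out, and none was called without title number 4, where limma adjusted p was 0.103 for Slc3a2, 0.142 for Slc7a5, 0.141 for Sesn2 and 0.163 for Slc1a5. None was called with the somatic marker covariate, where adjusted p was 0.115 for Slc3a2, 0.166 for Slc7a5, 0.152 for Sesn2 and 0.125 for Slc1a5, or with the Rn45s covariate, where it was 0.0591, 0.0789, 0.107 and 0.138 in the same order. Sesn2 and Slc1a5 were also not called with embryos averaged (adjusted p = 0.0712 and 0.0689) or without title number 1 (0.0885 and 0.0833). The somatic markers, at 5.12 ± 0.05 in withdrawn and 5.25 ± 0.11 in supplied embryos, and Rn45s moved with the diet, and their part in these values was not tested. Over the alternatives the adjusted p ranged from 0.000927 to 0.115 for Slc3a2, from 0.00237 to 0.166 for Slc7a5, from 0.00684 to 0.152 for Sesn2 and from 0.00588 to 0.163 for Slc1a5.

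Other genes of the pathway did not pass. Asns, the asparagine synthetase, was at 0.21 (limma adjusted p = 0.0589) and Trib3, a feedback inhibitor of Atf4, at -0.21 (limma adjusted p = 0.0602). The transcript of Atf4 itself was at 0.03 (limma adjusted p = 0.903), that of Eif2ak4, which encodes Gcn2, at -0.05 and that of the stress factor Ddit3 at -0.02. The serine synthesis genes Phgdh, Psat1 and Psph, whose product is charged by Sars, were at -0.06, 0.01 and 0.05.

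Some members share transcribed bases with neighbours in the GENCODE annotation of build GRCm38, and the sources used here do not state whether counting used strand. Exons of 13 members overlap another gene, and for 9 of them that gene is in the table. Aars shares 1326 bases, 14.3% of its exon bases, with Exosc6 on the same strand. Exosc6 averaged 7.38 ± 0.12 in withdrawn and 7.25 ± 0.11 in supplied embryos (SD, n = 6 each), a log2 fold change of 0.13 (limma adjusted p = 0.219). Farsb shares 248 bases with Sgpp2 on the opposite strand, and Sgpp2 averaged 3.39 ± 0.03 in withdrawn and 3.45 ± 0.07 in supplied embryos, near the lowest values of the table. Iars2 shares 2034 bases with Rab3gap2 on the opposite strand, 22.9% of its exon bases. Both were negative: Rab3gap2 was at -0.15 (limma adjusted p = 0.131). Hars and Hars2 share 195 bases with each other on opposite strands. No exon of Kars or Sars overlapped another annotated gene.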

How the data were processed

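The authors deposited 12516 genes by 12 embryos as normalized log2 values. TopHat2 2.0.13, DESeq2 1.10.1, Trim Galore 0.4.0 and FastQC are named, with build mm9 and without role or order, per the submitters' processing notes. How reads were counted and transformed, and on which annotation, is not stated in the sources used here. Depth cannot be recovered from such values, so no count test and no counting interval is given, and fold changes of genes with low values may be understated.

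Genes with a mean of at least log2 of 10 (3.32) were kept, 12432 in all. Withdrawn and supplied embryos were compared with limma 3.58.1 in R 4.3.3 (two-sided linear model on diet with a variance trend), and p-values were adjusted by Benjamini-Hochberg over the kept genes. The members and lists were chosen with earlier results of these data known. Values were named for every called member, for members up to 4 per compartment by smallest p, for up to 4 genes of each pathway list, and for the 3 highest and lowest levels per kb. Lars2 beside Rn45s, the other values given for single genes, and the genes that share bases with members were added after the values had been seen. The exact permutation test ran over 924 arrangements and cannot give a p under 0.00216. The genes it called were those without overlap between the diets. Permutation tests of correlations used 100000 resamples, or all 720 orders within a diet. Transcript length, GC content and exon overlaps came from GENCODE for GRCm38, for relations only. The scripts were tested on simulated data. Alternatives changed the filter, scaling, variance model, weights, test and threshold, tied or averaged embryos sharing title number and diet (statmod 1.5.0), blocked by title number, added covariates, removed the trend on length and GC, or left out embryos. The Rn45s covariate was added after seeing the data. Some genes of the mitochondrial charging list are not reported here.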

Additional observations from a re-analysis of the deposited data

Results flagged for a closer look

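Each of the 36 genes was screened in both diets for 1 embryo far from the other 5, by the gap to its nearest neighbour relative to the range of the group. Of 72 groups, 7 were picked out, where chance gives about 1 in 20.

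Aars was high in withdrawn replicate 5, at 11.16 with the next embryo at 10.85, and its log2 fold change without that embryo was 0.19 (limma adjusted p = 0.0426). Hars was low in withdrawn replicate 3, at 9.46 with the next at 9.81, and high in supplied replicate 4, at 9.81 with the next at 9.57. Sars was high in supplied replicate 4, at 10.68 with the next at 10.45, and was at 0.30 without it (limma adjusted p = 0.00641). Yars was high in withdrawn replicate 5, at 8.76 with the next at 8.56. Cars2 was high in supplied replicate 5, at 8.68 with the next at 8.38. Wars2 was low in withdrawn replicate 5, at 6.39 with the next at 6.68. Withdrawn replicate 5 and supplied replicate 4, which account for 5 of these 7, were also the highest withdrawn embryo and the highest supplied embryo on the first principal component.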

How the results depend on the processing

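The count of 1737 called genes (773 higher, 964 lower) became 886 with a random effect for embryos that share title number and diet, 298 with such embryos averaged, 1 with the somatic marker covariate, 558 by the exact test, 444 at an adjusted p below 0.01 and 2723 below 0.1. It was 729 without title number 1, 49 without title number 4 and 14 with the Rn45s covariate, and 808 to 2315 with 1 embryo left out. The 4 cytosolic calls became 2 with quantile normalization, 1 with the random effect, 1 by the exact test, 0 to 5 with 1 embryo left out, and 0 with embryos averaged, with either covariate, at an adjusted p below 0.01 and without title number 1 or 4. The 0 mitochondrial genes called lower became 1 without supplied replicate 4 (Vars2; 0 to 1 with 1 embryo left out), without title number 1 (Lars2) and without title number 3 (Vars2). The causes were not tested. Fewer embryos entered the fits that left some out, and the part of that in the counts was not tested either. Several genes that were not called changed sign. Of 30 alternatives, the sign turned in 8 for Farsa, 5 for Eprs, 3 for Cars, 2 each for Lars2, Pars2 and Wars2, and 1 each for Dars, Iars, Mars, Qars, Tars, Yars and Mars2. Among named genes, Mars2 moved to -0.022 without title number 4, Secisbp2 to 0.018 without title number 2, and Dtd1 to -0.041 with the length and GC trend removed, to -0.015 and -0.013 without title numbers 1 and 2, to -0.027 with the Rn45s covariate and to between -0.017 and -0.0018 with 1 embryo left out.

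With title number as a replicate block, 2062 genes were called, 5 of them cytosolic synthetases (the 4 and Hars), and 0 mitochondrial. Embryos of the same title number in both diets deviated together with r = 0.311, -0.045, 0.208 and -0.216 for numbers 1 to 4, so the numbers were not taken as pairing. Embryos of the same title number and diet gave r = 0.205 and -0.162 for withdrawn numbers 1 and 4 and 0.209 and 0.276 for supplied numbers 1 and 4, with a consensus correlation of 0.267. The main p-values treat such embryos as independent and are too small if these embryos resemble each other, as littermates or for another reason. The depth of the libraries is unknown, and differences of about 0.1 log2 units were near the median SE of 0.07.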
